A study of Homo sapiens with 5 samples.

Results

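The genes described here encode 33 proteins of glucose breakdown and storage. They comprise 2 glucose transporters, 9 enzymes of upper glycolysis, 3 bifunctional enzymes that set the level of fructose 2,6-bisphosphate, 6 enzymes of lower glycolysis, 6 of the pentose phosphate pathway and 7 of glycogen metabolism. They were taken by name from a fixed list of symbols, which was chosen with earlier results of these data known. All 33 had a probe, of 20041 genes with a named probe and 12418 detected on at least 1 array. Each gene was read by its probe with the highest mean signal over the 5 arrays, 32 were detected on all 5 arrays, and the glycogen synthase GYS1 was not detected on the pyruvate array.

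RNA came from H1, an established human embryonic stem cell line grown on Matrigel in E8, a defined medium. Each of 5 conditions had 1 Illumina BeadChip array: untreated E8, pyruvate added at 16 mM, BMP4, and BMP4 together with 16 mM pyruvate (called the mixture below), all taken at day 2, and the mixture again at day 6. BMP4 is a growth factor that drives pluripotent cells towards mesoderm and extraembryonic fates, its dose is not given in the sources used here, and all cells were of the 1 line. The study asked how extra pyruvate bears on metabolism and on mesodermal differentiation, and the values here address the carbohydrate genes. Because no condition was repeated, no difference below has a replicate error or a p-value.

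Glycolysis splits glucose into pyruvate. The hexokinases trap glucose as glucose 6-phosphate, phosphofructokinase commits it to the pathway, and pyruvate kinase makes pyruvate at the end, so pyruvate added to the medium enters below every enzyme of this list. Glucose 6-phosphate may instead pass to the pentose phosphate pathway, which makes NADPH and ribose for nucleotides, or be stored as glycogen through phosphoglucomutase, UDP-glucose and glycogen synthase. Human pluripotent stem cells are known for a high rate of glycolysis, and the balance between glycolysis and respiration shifts as they differentiate.

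Values are log2 of the background-corrected, quantile-normalized signal, and a level can be compared between arrays for 1 probe but not between probes. A difference of 1 is 2-fold. A gene was counted as higher or lower when it differed by 2-fold or more and was detected, at a detection p under 0.01, on the brighter array. The rule is one of size, and it tests nothing. The arrays detected 16661 to 18982 of 47296 probes. RNA of a mixed culture was measured, so a change in the share of 1 kind of cell and a change of RNA in each cell cannot be told apart.

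The labels were checked against marker genes. The 5 pluripotency markers with a probe (POU5F1, NANOG, SOX2, LIN28A and DPPA4) were detected on all 4 arrays of day 2, with mean levels of 12.54 in E8, 12.56 with pyruvate, 12.18 with BMP4 and 11.49 with both agents. With both agents against BMP4 alone, 1 of the 5 was lower by 2-fold, SOX2 at -2.05. The other 4 did not pass, among them POU5F1 at 0.30. At day 6 only 3 of the 5 were detected and the mean was 8.03. Of 6 primitive streak and mesoderm markers (TBXT, MIXL1, EOMES, MESP1, HAND1 and GATA4), 1 was detected in E8, 0 with pyruvate, 4 with BMP4, 5 with both agents and 6 at day 6. From day 2 to day 6 of the mixture, 3 of the 6 were higher by 2-fold and 2 lower, TBXT (4.86-fold) and MIXL1 (2.06-fold). PAX6 and SOX1 of neuroectoderm, PECAM1 and CDH5 of endothelium, and KRT7 and CGA of trophoblast were detected on no array. Of the other trophoblast and amnion markers, TFAP2A was detected on all 3 arrays with BMP4, CDX2 on the mixture at both days (6.02 and 8.38) and GATA3 at day 6 (7.07). Of endoderm, SOX17 was detected on the mixture at both days (7.34 and 9.56) and FOXA2 at day 6, and KDR, of endothelium and early mesoderm, on all 5. The part of this change of cell state in the differences below was not tested.

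Of the day 2 arrays, the mixture lay farthest from the rest, and it is called the array that stood apart below. Of 9728 genes detected on all 4 arrays of that day, 4.42% lay at least 0.5 above the other 3 arrays and 6.11% at least 0.5 below, where those 3 lay within 0.5 of each other. For the other arrays the same counts were 37 to 84 genes above and 36 to 80 below. Of 32 members detected on those 4 arrays, 5 lay above on this array (ALDOA, PKM, SLC2A3, PGLS and PGD) and 0 below. It was the highest array of day 2 for 18 of the 32, and for 31.9% of all genes. The comparison of day 6 with this array is therefore given beside ones that leave it out. Comparisons of this array with others of day 2 have no such counterpart.

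HIF1, the oxygen-sensing factor known to drive many glycolytic genes, binds DNA at a short core. Only its form ACGTG was searched here, so other forms of the core are not counted below. The same letters lie inside CACGTG, an E-box read by MYC. RefSeq windows of 250 bases before the annotated start (GRCh38.p14) were available for 31 of the 33 members, in 54 windows. ACGTG or its reverse complement CACGT stood in 19 of the 54 windows, 35.2%, against 18.5% of 35116 windows of all genes. CACGTG stood in 6 of the 54 windows, against 6.34% of all. Windows of 1 gene can overlap, and a match of letters does not show binding. The windows below belong to the most upstream annotated start of 5 members, chosen after their values were seen. PKM and GBE1 were higher at day 6 both against E8 and against the mixture at day 2, and HK2, PYGL and ENO2 were the 3 lowest against E8. Capitals mark ACGTG and CACGT.
PKM (chr15:72231191-72231440, minus strand): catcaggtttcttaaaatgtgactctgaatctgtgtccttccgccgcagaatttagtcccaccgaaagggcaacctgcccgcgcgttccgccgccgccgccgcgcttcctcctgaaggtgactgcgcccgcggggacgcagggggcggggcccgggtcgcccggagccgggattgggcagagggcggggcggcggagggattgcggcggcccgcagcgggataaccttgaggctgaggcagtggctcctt
GBE1 (chr3:81761646-81761895, minus strand): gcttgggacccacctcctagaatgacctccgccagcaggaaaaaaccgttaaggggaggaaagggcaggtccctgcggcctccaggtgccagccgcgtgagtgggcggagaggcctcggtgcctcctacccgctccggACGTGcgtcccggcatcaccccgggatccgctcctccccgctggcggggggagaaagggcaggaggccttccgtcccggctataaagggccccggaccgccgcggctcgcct
HK2 (chr2:74833877-74834126, plus strand): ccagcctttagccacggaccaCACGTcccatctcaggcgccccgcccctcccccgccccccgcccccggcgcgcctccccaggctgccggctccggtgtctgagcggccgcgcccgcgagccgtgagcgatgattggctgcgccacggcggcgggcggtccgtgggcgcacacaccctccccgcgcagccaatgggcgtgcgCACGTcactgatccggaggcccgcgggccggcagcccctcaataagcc
ENO2 (chr12:6914330-6914579, plus strand): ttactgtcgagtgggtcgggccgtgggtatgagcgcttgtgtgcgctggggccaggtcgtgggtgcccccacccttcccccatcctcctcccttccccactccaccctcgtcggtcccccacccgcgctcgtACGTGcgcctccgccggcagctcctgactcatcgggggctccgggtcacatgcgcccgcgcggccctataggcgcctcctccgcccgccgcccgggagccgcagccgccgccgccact
PYGL (chr14:50944484-50944733, minus strand): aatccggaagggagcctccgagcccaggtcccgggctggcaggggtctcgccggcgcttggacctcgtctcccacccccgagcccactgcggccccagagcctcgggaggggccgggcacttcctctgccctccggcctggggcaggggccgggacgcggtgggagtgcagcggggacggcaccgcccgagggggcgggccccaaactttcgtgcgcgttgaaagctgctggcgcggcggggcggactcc
GBE1 and ENO2, which differed in opposite directions at day 6, each held 1 match, HK2 held 2, and PKM and PYGL, also opposite in direction, held 0. Nothing about binding or direction follows from these letters.

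With pyruvate alone no member differed from E8 by 2-fold. Of the 33 genes, 0 were 2-fold higher and 0 were 2-fold lower, where 1.05% of all detected genes were higher and 1.32% lower. The median difference was -0.04, against 0.00 over all genes, and 13 members lay above 0 and 20 below. The extremes were PFKFB4 at 0.63 and ENO2 at -0.70. BMP4 alone had 0 of 33 higher and 0 lower, where 2.68% and 2.52% of all genes were. Scaling arrays to their 75th percentile in place of quantiles moved the share of higher among all called genes of this comparison from 51.6% to 64.1%. The members' median was -0.12 against -0.01 over all genes, and the extremes were PFKFB3 at 0.39 and HK2 at -0.91.

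With BMP4 present, most members read higher with added pyruvate than without, few of them by 2-fold. Against BMP4 alone 2 members were higher, ALDOA and SLC2A1, and 0 were lower, where 3.72% of all genes were higher and 3.06% lower. The median was 0.33 against -0.02 over all genes, and 24 of 33 members lay above 0, where 48.5% of all genes did. With scaling to the 75th percentile it was 0.21, with 20 of 33 above 0. Against pyruvate alone, 1 member was higher (ALDOA) and 0 were lower, where 6.46% and 5.77% of all genes were, and the median was 0.23 against -0.04. Scaling moved the share of higher among all called genes of that comparison from 52.8% to 63.5% and the members' median to 0.088. Both comparisons rest on the array that stood apart, and no other array holds these agents at day 2. The counts use 1 probe per gene. Further probes past 2-fold against pyruvate alone belonged to PKM (1.16 and 1.55), HK2 (-1.39) and UGP2 (-1.86 and -1.31). Against BMP4 alone they belonged to PKM (1.25), GAPDH (1.07) and UGP2 (-1.04).

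Day 6 of BMP4 plus pyruvate held the widest differences in both directions. Against day 2 of the same mixture, 2 of 33 members were higher and 7 lower, where 13.5% of all genes were higher and 13.0% lower. The median was -0.42 against -0.01 over all genes, with 8 members above 0. Against E8 at day 2, 3 were higher and 5 lower, where 12.5% and 12.3% of all genes were, with a median of -0.27 against -0.04. Both comparisons share the day 6 array, so their calls are not separate evidence. Day 6 also differs from E8 in BMP4, pyruvate and time together.

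A comparison that leaves out the array that stood apart sets day 6 against BMP4 alone at day 2, which changes pyruvate as well as time and was added after the values were seen. By it 2 members were higher (PKM and GBE1) and 5 lower (HK2, PFKFB2, TKT, UGP2 and PYGL), where 12.1% of all genes were higher and 11.1% lower. PFKFB2 and UGP2 passed narrowly, at -1.03 each. The second probe of PFKFB2, a dim gene, read 6.52 with BMP4 and 5.99 at day 6, short of 2-fold. GPI, SLC2A1, PGD and PGM2, lower against the mixture at day 2, did not pass against BMP4 alone, at -0.46, -0.66, -0.65 and -0.77. Set against all 4 arrays of day 2, the day 6 value was the lowest of 5 in 19 of 32 members, where it was so in 34.5% of all genes, and the highest in 5, where it was so in 31.4%. By 2-fold or more it lay below all 4 arrays in HK2 and PYGL, 2 of 32 (4.36% of all genes), and above them in PKM, 1 of 32 (4.30%).

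**Figure D1:**
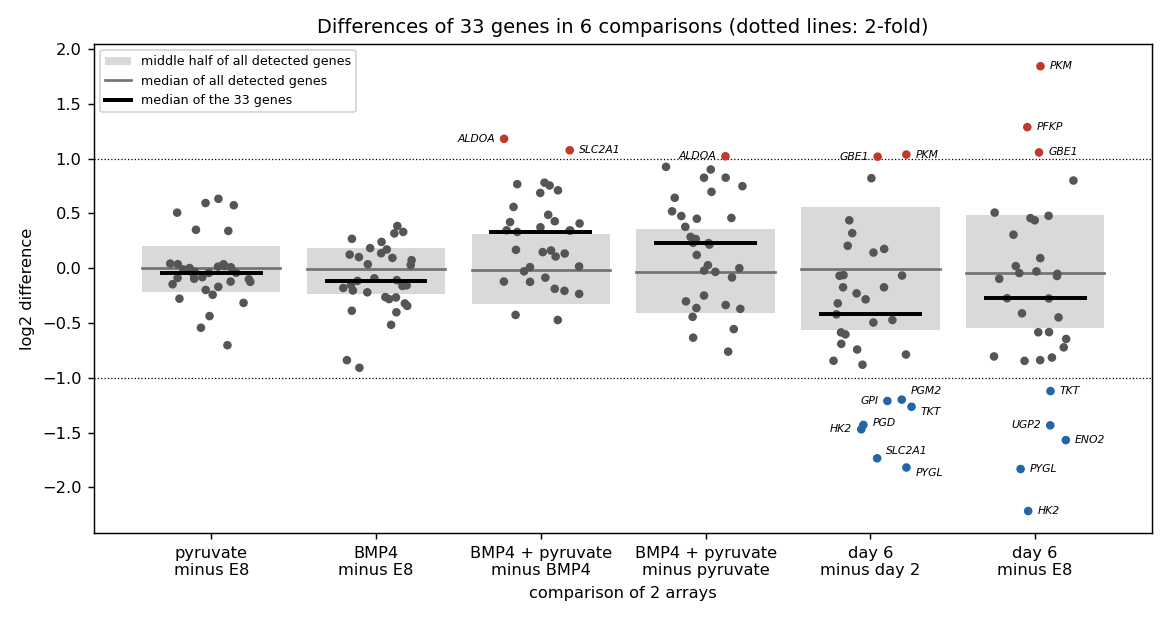
Log2 difference of each of the 33 genes (points) in 6 comparisons of 2 arrays, with 1 array per condition; red points are 2-fold or more higher and blue points 2-fold or more lower. Grey boxes span the 25th to 75th percentile of all detected genes. The black median line of the members lies at 0.33 for BMP4 plus pyruvate against BMP4 and at -0.42 for day 6 against day 2.

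Among the transporters, SLC2A1 (GLUT1), the widespread basal glucose carrier, measured 10.99 in E8, 11.50 with pyruvate, 11.07 with BMP4, 12.14 with both agents and 10.41 at day 6. It was higher on each pyruvate array of day 2 than on its partner without pyruvate, by 0.51 without BMP4 and by 1.08, or 2.11-fold, with it, and lowest at day 6. With scaling the latter was 0.99, short of 2-fold. From day 2 to day 6 of the mixture it was 3.33-fold lower, but its difference from E8 was -0.58. SLC2A3 (GLUT3), a carrier of high affinity, measured 13.79 in E8 and with pyruvate, 14.05 with BMP4, 14.61 with both agents and 14.29 at day 6. Its levels lay within 0.83 of each other and it passed the size rule in no comparison.

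The hexokinases parted. HK1, the broadly expressed form, measured 12.72 in E8, 12.68 with pyruvate, 12.89 with BMP4, 12.91 with both agents and 12.62 at day 6, a range of 0.28. HK2, the inducible form bound to mitochondria, measured 10.40 in E8, 10.42 with pyruvate, 9.49 with BMP4, 9.66 with both agents and 8.19 at day 6. Every BMP4 array lay below both arrays without BMP4. At day 6 HK2 was 4.65-fold lower than in E8 and 2.77-fold lower than on the mixture at day 2. A further probe of HK2 gave -1.36 and -0.45 for these comparisons. At day 2 the probes disagreed, with -0.91 and 0.00 for BMP4 against E8, and 0.16 and -0.91 for the mixture against BMP4. Both read lowest at day 6. With the mean of both probes, day 6 against the mixture was -0.96. GPI, which turns glucose 6-phosphate into fructose 6-phosphate, measured 10.41, 10.45, 10.14 and 10.90 on the day 2 arrays of E8, pyruvate, BMP4 and both agents, and 9.69 at day 6. It was 2.32-fold lower at day 6 than on the mixture at day 2, and 0.72 below E8.

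The phosphofructokinase subunits also differed from each other. PFKP, the platelet form, measured 10.22 in E8, 10.21 with pyruvate, 10.56 with BMP4, 10.69 with both agents and 11.51 at day 6. Day 6 lay 0.82 above every array of day 2 and was 2.44-fold above E8. PFKL, the liver form, measured 8.79, 8.59, 9.10, 9.51 and 9.09 in the same order. PFKM, the muscle form, measured 10.28, 9.84, 10.08, 9.87 and 9.70, highest in E8 and lowest at day 6. Neither PFKL nor PFKM passed the size rule. The PFKFB enzymes, which make and remove the activator of phosphofructokinase, passed in none of the 6 comparisons with the probe used. PFKFB3 was at 10.08 in E8 and 10.68 with pyruvate, a difference of 0.60, and PFKFB4 at 8.99 and 9.62, a difference of 0.63. The second probe of PFKFB3 gave 0.17. For day 6 against the mixture at day 2 that probe was past 2-fold, at -1.01, where the first gave -0.79. PFKFB2 lay at -0.85 for day 6 against E8, short of 2-fold.

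Aldolase splits the 6-carbon sugar. ALDOA, its main form in most tissues, measured 11.87 in E8, 11.75 with pyruvate, 11.59 with BMP4, 12.77 with both agents and 11.89 at day 6. The mixture at day 2 was the 1 array that stood out, 2.27-fold above BMP4 alone and 2.03-fold above pyruvate alone, and day 6 was within 0.02 of E8. Its second detected probe gave smaller differences, 0.56 and 0.67, and read lowest at day 6, at -0.64 against E8. The difference from pyruvate alone was under 2-fold without background correction (0.998), with scaling (0.89) and with the mean of detected probes (0.85), and that from BMP4 alone with the mean of probes (0.87). ALDOC, the form known from brain, was 10.88 in E8, 10.60 with pyruvate, 10.36 with BMP4, 10.24 with both agents and 10.07 at day 6, all short of 2-fold. TPI1, triose phosphate isomerase, stayed within 0.35.

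In lower glycolysis, PKM, pyruvate kinase, held the largest positive difference of the set. It measured 11.41 in E8, 11.31 with pyruvate, 11.50 with BMP4, 12.21 with both agents and 13.25 at day 6. The first 3 arrays were close together, the mixture at day 2 lay above them, and day 6 was the highest. At day 6 it was 3.59-fold above E8 and 2.05-fold above the mixture at day 2. The other 2 probes, each annotated to another transcript of PKM, gave 1.95 and 1.54 against E8, and 0.94 and 0.27 against the mixture. Their mean with the first was 0.75 against the mixture, short of 2-fold. Which exons the probes read was not analysed here, so the muscle and embryonic splice forms of the enzyme were not told apart.

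ENO2, the neuronal enolase, went the other way. It measured 10.13 in E8, 9.43 with pyruvate, 9.29 with BMP4, 9.06 with both agents and 8.56 at day 6. E8 was the highest array and day 6 the lowest, 2.97-fold below E8. ENO1, the general form, measured 14.23, 14.27, 14.14, 14.48 and 14.69 in the same order and passed nowhere. The remaining enzymes, GAPDH (range 0.69), PGK1 (0.35) and PGAM1 (0.74), did not pass in any comparison with the probe used. The second probe of PGAM1, the phosphoglycerate mutase, was past 2-fold at day 6, at -1.85 against the mixture and -1.13 against E8. For PGK1 the second probe gave -0.21 where the first gave 0.32 for day 6 against the mixture. GAPDH, a common reference gene for RNA levels, was 0.42 higher with both agents than with BMP4 alone and 0.69 lower at day 6 than on that array, and its further probes gave 0.84 and 1.07, and -1.23 and -1.24. Processed pseudogenes of GAPDH, PGAM1 and ENO1 exist in the human genome, and whether the probes also bind their transcripts was not tested.

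**Figure D2:**
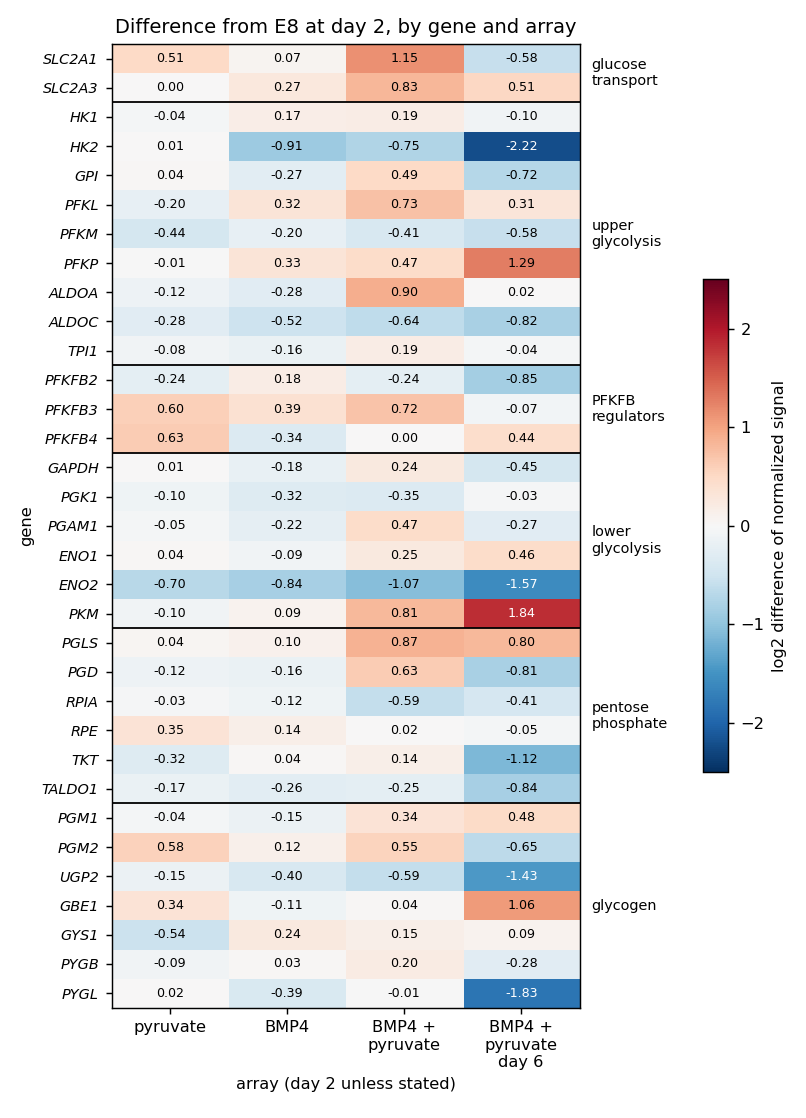
Log2 difference of the normalized signal from E8 at day 2 for each of the 33 genes (rows, grouped by role) on the other 4 arrays (columns); red is higher and blue lower than E8. PKM (1.84), PFKP (1.29) and GBE1 (1.06) are the red cells past 2-fold at day 6, and HK2 (-2.22), PYGL (-1.83), ENO2 (-1.57), UGP2 (-1.43) and TKT (-1.12) the blue ones.

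In the pentose phosphate pathway, 5 of 6 enzymes lay below E8 at day 6, with a median of -0.61, and 1 of them passed the size rule. TKT, transketolase, which exchanges carbon units between the pathway and glycolysis, measured 13.48 in E8, 13.17 with pyruvate, 13.52 with BMP4, 13.63 with both agents and 12.36 at day 6. Day 6 lay 0.81 below the lowest day 2 array and was 2.18-fold below E8 and 2.40-fold below the mixture at day 2. TALDO1, transaldolase, its partner, was at 12.91 in E8 and 12.07 at day 6. PGD, which makes the second NADPH of the oxidative branch, measured 11.61, 11.49, 11.46 and 12.24 on the day 2 arrays of E8, pyruvate, BMP4 and both agents, and 10.81 at day 6. It was 2.70-fold lower at day 6 than on the mixture at day 2. PGLS, the lactonase before it, was the exception at day 6, 0.80 above E8, and it was already 0.87 above E8 on the mixture at day 2. RPIA, which makes ribose 5-phosphate, and RPE, its epimerase partner, ranged over 0.59 and 0.40.

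Of the 7 glycogen genes, 1 was higher at day 6 than in E8 and 2 were lower, beside 12.5% and 12.3% of all genes. PYGL, the liver form of glycogen phosphorylase, which releases glucose 1-phosphate, measured 11.22 in E8, 11.24 with pyruvate, 10.84 with BMP4, 11.21 with both agents and 9.39 at day 6. The 4 arrays of day 2 lay within 0.41 and day 6 was 1.45 below the lowest of them, 3.56-fold below E8. PYGB, the brain form, measured 8.73, 8.64, 8.76, 8.93 and 8.45 in the same order, within 0.47. UGP2, which makes UDP-glucose, measured 13.33 in E8, 13.18 with pyruvate, 12.92 with BMP4, 12.74 with both agents and 11.89 at day 6. Each array with BMP4 lay below both arrays without it, and day 6 was 2.70-fold below E8. Its 3 further probes detected on all arrays gave -1.63, -2.29 and -1.05 for day 6 against E8, and -0.62, -0.43 and -0.25 for BMP4 against E8.

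GBE1, the branching enzyme, was higher at day 6. It measured 7.88 in E8, 8.22 with pyruvate, 7.77 with BMP4, 7.92 with both agents and 8.94 at day 6, 2.08-fold above E8 and 2.03-fold above the mixture at day 2. Both values lie near 2-fold. They did not pass without background correction (0.77 and 0.74), with the offset of 50 (0.96 and 0.93) or in the deposited log2 values (0.998 and 0.96), and the second did not with scaling (0.94). PGM2, which acts on ribose 1-phosphate and glucose 1-phosphate, measured 8.72, 9.29, 8.84 and 9.27 on the day 2 arrays of E8, pyruvate, BMP4 and both agents, and 8.07 at day 6. It was higher on both pyruvate arrays of day 2, by 0.58 and 0.43, and 2.30-fold lower at day 6 than on the mixture. Without background correction that difference was -0.91, short of 2-fold. PGM1, the main phosphoglucomutase, measured 12.09, 12.04, 11.94, 12.42 and 12.57 in that order, highest at day 6. GYS1, glycogen synthase of muscle and most tissues, was between 6.06 and 6.30 where it was detected.

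**Figure D3:**
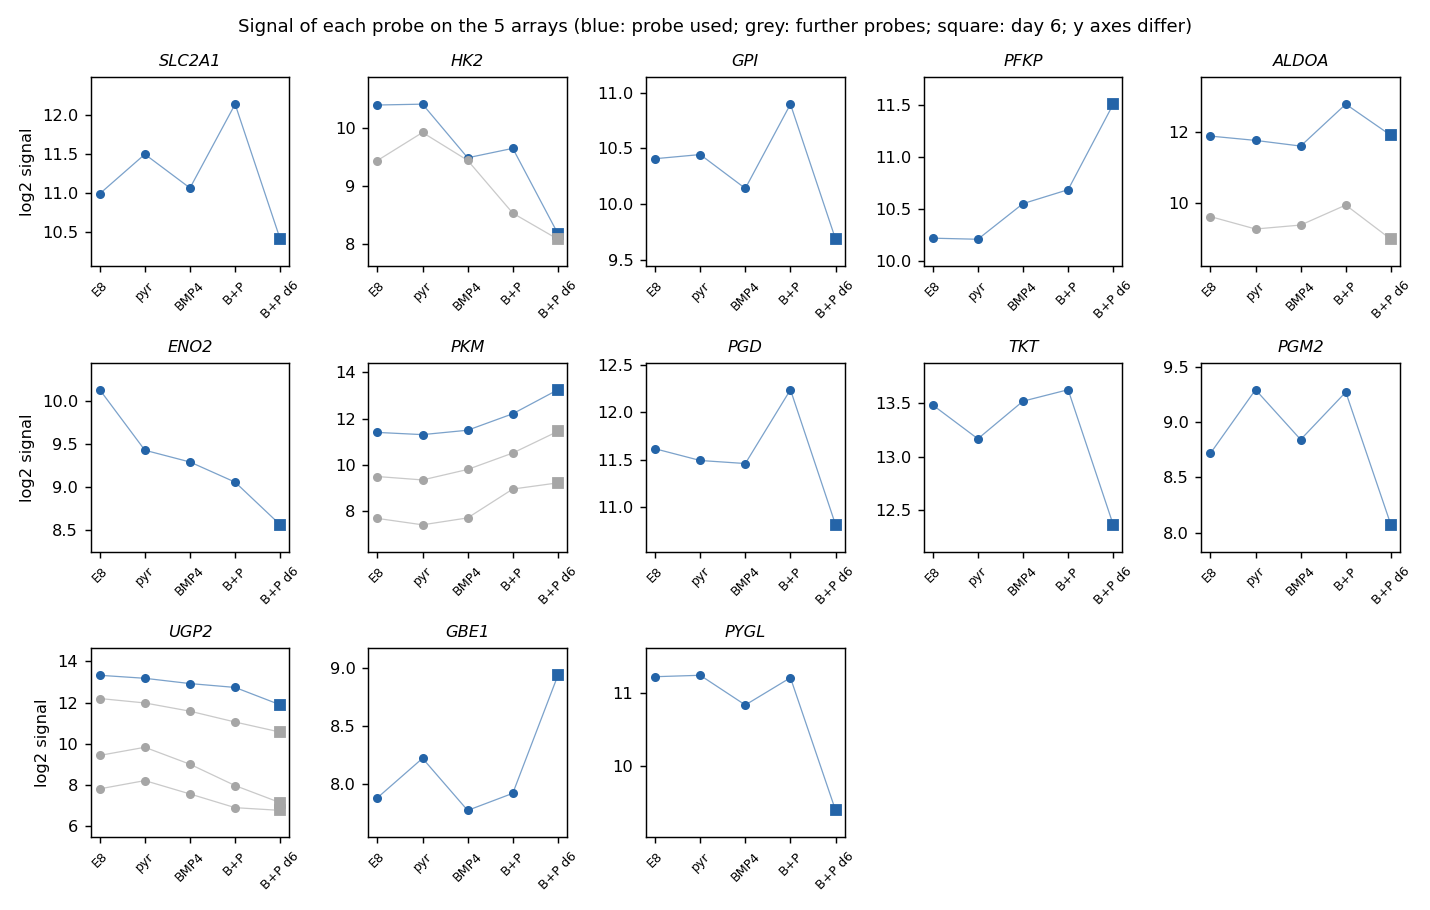
Log2 signal (y axis, a scale of its own in each panel) of the 13 genes past 2-fold in any of the 6 comparisons, on the 5 arrays (x axis); blue is the probe used, grey any further probe detected on all arrays, squares are day 6, and thin lines join the values of 1 probe. All 3 probes of PKM are highest at day 6, and all 4 of UGP2 and both of HK2 are lowest there.

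In all, 13 of the 33 genes passed in at least 1 comparison and 20 in none, where 39.1% of all detected genes passed in at least 1. The members' share was thus close to that of all genes. The 20 members ranged over 0.28 to 1.03 across the 5 arrays, with a median range of 0.72. Of the 13, only ALDOA, HK2, PKM and UGP2 had a further probe detected on all arrays. The rest of the 13 rely on 1 detected probe each, so the agreement between probes given next does not cover them. For 10 members with a second probe detected on all arrays, the probes had the same sign in 6 for pyruvate against E8 and for BMP4 against E8. The same count was 8 for the mixture against BMP4, 9 for the mixture against pyruvate, 9 for day 6 against day 2 and 8 for day 6 against E8. Where 2158 genes had a further detected probe, the SD of the gap between probes was 0.308 and 0.287 in the first 2 comparisons and 0.531, 0.574, 0.638 and 0.448 in the others.

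The pyruvate difference was set side by side without and with BMP4, in pairs that share no array. SLC2A1 was 0.51 and 1.08, PFKFB3 0.60 and 0.33, PFKFB4 0.63 and 0.34, PGM2 0.58 and 0.43, and ENO2 -0.70 and -0.23. These genes differed by at least 0.5 without BMP4 and kept their sign with it, as did GYS1 (-0.54 and -0.09), undetected with pyruvate. ALDOA (-0.12 and 1.18), PGD (-0.12 and 0.78), PKM (-0.10 and 0.71) and PGAM1 (-0.05 and 0.69) were above 0.5 in the pair with BMP4 and near 0 in the other. So were PGLS (0.04 and 0.77), GPI (0.04 and 0.76) and SLC2A3 (0.00 and 0.56), whose sign was the same in both pairs. The share of all genes with the same sign in both pairs is not given here. The pair with BMP4 holds the array that stood apart. The departure from additivity, the second difference minus the first, was above 0 in 25 of 33 members, with a median of 0.31 against -0.02 over 11978 genes. The share of all genes above 0 is not given here, so that count has no background beside it. With the probe used, the departure reached 1 or more in 1 member, ALDOA (1.30). Of all genes, 10.7% departed by as much in either direction. Some further probes detected on all arrays were far apart between the pairs, in both directions. Without and with BMP4 they gave 0.48 and -0.91 for HK2, and 0.40 and -1.04 for UGP2. For PKM the values were -0.28 and 1.25, and for GAPDH -0.18 and 1.07. The departure could not be tested with 1 array per condition.

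**Figure D4:**
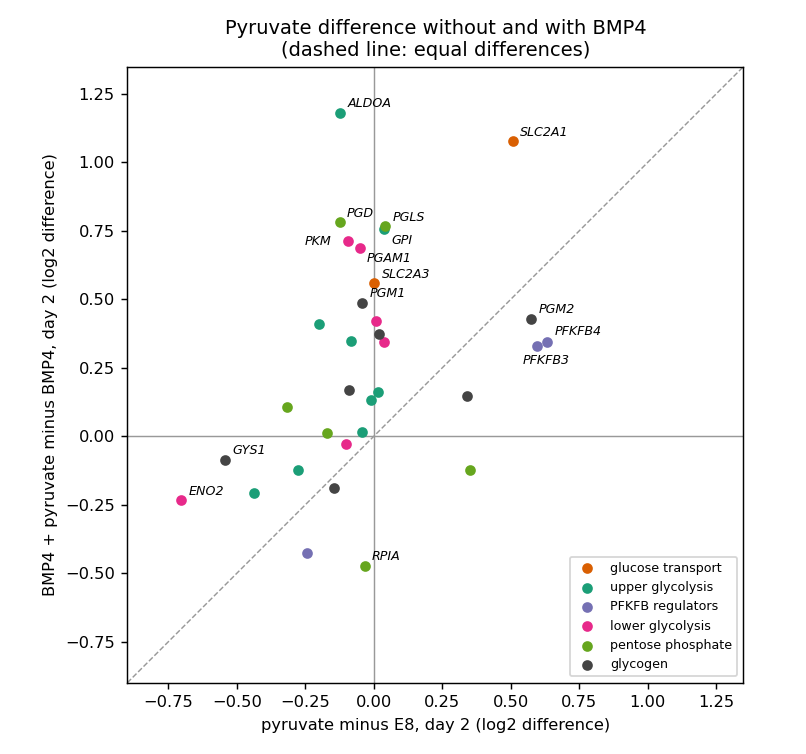
Log2 difference with pyruvate for each of the 33 genes at day 2, without BMP4 (x axis, pyruvate minus E8) and with it (y axis, BMP4 plus pyruvate minus BMP4), coloured by role; the dashed line marks equal differences. SLC2A1, PFKFB3, PFKFB4 and PGM2 lie to the right of 0.5, and ALDOA lies near 0 on the x axis and at 1.18 on the y axis.

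Other genes of these pathways were taken from a list of 71 symbols, 65 of them with a named probe and 40 to 42 detected per comparison. Pyruvate against E8 had 1 higher, the transporter SLC2A6 (2.57-fold), and 1 lower, the lysosomal glucosidase GAA (at least 2.28-fold), with 39 neither. BMP4 against E8 had 0 higher and 1 lower, the gluconeogenic enzyme FBP1 (3.52-fold). Adding pyruvate to BMP4 gave 1 higher, SLC2A14 (2.52-fold), a near copy of SLC2A3, and 0 lower. Whether its probe also binds SLC2A3 transcripts was not tested. Against pyruvate alone the mixture had 6 higher and 4 lower of 41, beside 6.46% and 5.77% of all genes. The lower genes were FBP1 (4.25-fold), PGM2L1 (3.93-fold), PPP1R3C (2.24-fold), a glycogen-targeting subunit of protein phosphatase 1, and PC (2.15-fold), pyruvate carboxylase. The higher ones included SLC2A14 (2.83-fold), PPP1R3B, another glycogen-targeting subunit (at least 2.76-fold), GAA (at least 2.07-fold) and H6PD, for which no bound above 1-fold could be set.

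At day 6, 6 of 42 of these further genes were higher than on the mixture at day 2 and 3 lower, beside 13.5% and 13.0% of all genes. Against E8, 5 of 42 were higher and 6 lower, beside 12.5% and 12.3%. These counts are near the shares of all genes. PGM5, a phosphoglucomutase relative of muscle (at least 6.13-fold and at least 6.84-fold), ENO3, the muscle enolase (5.55-fold and 3.78-fold), and PPP1R3C (5.11-fold and 3.42-fold) were higher in both. SLC2A10, a transporter, was also higher in both (3.72-fold and 2.35-fold), and PPP1R3B was 2.95-fold higher against E8. FBP1 (at least 1.22-fold and at least 4.75-fold) and PRPS1, which makes the nucleotide precursor PRPP (2.29-fold and 2.61-fold), were lower in both. SLC2A14 was 2.22-fold lower against day 2, and PGM2L1 (2.38-fold) and PRPS2 (2.35-fold) were lower against E8. The list's medians were -0.12 and 0.10. With ENO2 lower and ENO3 higher at day 6, the enolase transcripts differed in direction.

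At the exit of glycolysis, 13 of 15 listed genes had a probe. Of the 10 to 12 detected, 0 passed 2-fold for pyruvate against E8 (median 0.29), BMP4 against E8 or the mixture against BMP4. Over all genes only 1.05% to 3.72% passed per direction in these comparisons. PDP1, a phosphatase of pyruvate dehydrogenase, was 2.22-fold lower on the mixture than with pyruvate alone, 1 of 11, beside 5.77% of all genes. At day 6 PDK1 was 2.13-fold and PDK4 at least 2.51-fold above E8, and PDK3 was 3.23-fold below it. That is 2 higher and 1 lower of 11, beside 12.5% and 12.3% of all genes. Against the mixture at day 2, PDK4 was at least 2.25-fold higher, 1 of 12, beside 13.5% of all genes. These kinases restrain pyruvate dehydrogenase. Among 23 regulators with a probe, 19 or 20 were detected per comparison and 1 or 2 passed in each direction. Over all genes the share per direction ran from 1.05% for pyruvate against E8 to 13.5% for day 6 against day 2, so these counts differ in weight between comparisons. TXNIP, which restrains glucose uptake, measured 10.59 in E8, 9.34 with pyruvate, 9.75 with BMP4, 7.92 with both agents and 11.33 at day 6, so that it was lowest where SLC2A1 was highest and highest where SLC2A1 was lowest. EPAS1 (HIF2 alpha) measured 6.50, 7.80, 5.48, 7.47 and 8.30 in the same order, with the BMP4 value undetected. EGLN3, a HIF prolyl hydroxylase, measured 5.97, 6.42, 8.03, 7.72 and 6.67, higher with BMP4 at day 2. MYCN, of the MYC family, was 12.30 in E8, 11.15 with both agents and 10.42 at day 6, 3.70-fold below E8. MLX, partner of the glucose-sensing factors, was 2.04-fold higher on the mixture than with BMP4 alone. ARRDC4, a relative of TXNIP, was at least 1.75-fold lower with BMP4 than in E8. PRKAG2, a subunit of AMPK, was 2.06-fold higher at day 6 than on the mixture at day 2.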

How the data were processed

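Labelled cRNA from 5 cultures, 1 per condition, was read on Illumina BeadChips. The deposited table of intensity values is not normalized, per the file headers and name, and each signal comes with a deposited detection p-value. A second deposited table holds log2 values of unstated making, with a median of 5.58 on every array, and served as an alternative. The sources used here do not name the scanner software. Intensities were corrected and quantile normalized with limma 3.58.1 (neqc, offset 16) in R 4.3.3, which makes every difference relative to the rest of its array and shrinks those of dim probes. This step was tested on simulated data. Probes were named from the platform annotation (30105 with 1 symbol, 30066 matched to RefSeq, 0 symbols updated). All per-sample columns were used. The members and lists were chosen with earlier results of these data known. Members past 2-fold in a comparison are given on all 5 arrays. Paralogs of those members are given likewise, other members by range. From the other lists up to 4 genes a direction and comparison are named by size. Where no probe of a gene was detected on the dimmer array, "at least" sets the bright value against the lowest detected signal there or the probe's own value, whichever is higher. No test was made between single arrays. The number of arrays limits the precision.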

Additional observations from a re-analysis of the deposited data

How the results depend on the processing

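No paired analysis was possible because each condition had 1 array, and no replicate could be left out. Alternatives were no background correction, an offset of 50, scaling to the 75th percentile, the deposited log2 values, the mean of detected probes, detection on both arrays and a 1.5-fold limit. The members' median kept its sign under each of these. It moved by 0.1 or more in 5 cases. For the mixture against BMP4 it was 0.21 with scaling and 0.23 with the mean of detected probes, in place of 0.33. For the mixture against pyruvate it was 0.088 with scaling, in place of 0.23. For day 6 against day 2 it was -0.32 without background correction and -0.27 against BMP4 alone (chosen after seeing the data), in place of -0.42. The members' counts past the size limit moved by over 1.5 times in the cases listed next, which are not the same as those of the median. The 1.5-fold limit gave 3 members for pyruvate against E8 and 2 for BMP4 against E8, where 0 passed 2-fold. It gave 7 for the mixture against BMP4, 10 for the mixture against pyruvate, 17 for day 6 against day 2 and 15 for day 6 against E8. Scaling and the mean of detected probes each left 1 for the mixture against BMP4. For the mixture against pyruvate, 0 passed without background correction, and with the mean of detected probes 1 was higher and 2 were lower, 3 in all. Of 20 differences past 2-fold of single members, 0 changed sign, and 16 to 18 still passed under each of the 5 settings that change values.

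Counts over all genes depend more on the setting. In the order pyruvate against E8, BMP4 against E8, mixture against BMP4, mixture against pyruvate, day 6 against day 2 and day 6 against E8, 272, 601, 760, 1380, 3082 and 2969 genes passed. Without background correction it was 23, 148, 145, 420, 1359 and 1381, with the offset of 50 71, 283, 348, 804, 2224 and 2150, and with the deposited values 133, 398, 461, 990, 2597 and 2548. Detection on both arrays gave 108, 318, 477, 913, 2030 and 1795, and the 1.5-fold limit 1409, 1734, 2752, 3651, 5650 and 5459. The cause was not tested. Dim probes limit what can be seen, GYS1 and PFKFB2 among the members.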
